A study of Mus musculus with 13 samples.

Results

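The transforming growth factor beta (TGF-beta) and bone morphogenetic protein (BMP) family genes were followed through nerve injury in mice with and without Raptor in Schwann cells (SCs). Members were chosen by name, as protein-coding genes called Tgfb1 to Tgfb3, Tgfbr, Bmp, Bmpr, Acvr, Inhb, Gdf or Smad with a number. Of 49 such genes, 31 held at least 50 counts in at least 2 of 13 libraries, out of 12851 genes that did. The other 18 were Acvr1c, Bmp2, Bmp8a, Bmp8b, Bmp10, Bmp15, Bmpr1b, Gdf1, Gdf2, Gdf5, Gdf6, Gdf7, Gdf9, Inhba, Inhbc, Inhbe, Smad6 and Smad9. Inhba peaked at 57 counts and Smad9 at 64, each in a single library above the limit. As the limit asks for high counts in only a few libraries, genes that are high in 1 condition could enter through it.

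Each library came from a sciatic nerve of a C57BL/6 mouse. All mice carried floxed Rptor alleles on both chromosomes and received tamoxifen at 2 months of age. RaptorKO mice also carried a tamoxifen-inducible CreERT2 that is active in SCs, and controls had no Cre. Of each mouse a single nerve was crushed 2 months later, and nerves were taken at 5 days post-crush (dpc). There were 3 control injured, 3 RaptorKO injured, 3 control contralateral and 4 RaptorKO contralateral libraries. The epineurium was removed and the whole nerve distal to the injury was used, so all cell types of the nerve contribute to a library. In such bulk samples fewer cells of a type and less RNA per cell cannot be told apart.

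TGF-beta and activin ligands bind type II receptor kinases, which activate type I receptors that phosphorylate Smad2 and Smad3. BMPs and many growth differentiation factors (GDFs) signal in the same way through Smad1, Smad5 and Smad9. Smad4 is shared by both arms, and Smad6 and Smad7 restrain them. In peripheral nerve, TGF-beta is known to act on SC proliferation, survival and plasticity after injury. Among members by name, Bmp1 is a protease that trims procollagens and frees ligands from inhibitors, and Bmp2k is a kinase of endocytosis. Neither is a ligand.

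Library totals ranged from 8200458 to 13581775 counts. Rptor, the targeted gene, had 35.1 to 48.6 counts per 1000000 (CPM) in control injured and 23.2 to 28.6 CPM in RaptorKO injured libraries. In contralateral nerves the ranges were 43.7 to 52.5 CPM in controls and 22.1 to 28.03 CPM in RaptorKOs, without overlap on either side. Summed CPM of 7 SC markers ranged from 1735 to 4532 over all libraries, and that of 8 myelin genes from 74116 to 95509 in contralateral and from 1966 to 2788 in injured nerves. The muscle marker Ckm never passed 0.61 CPM and the T cell marker Cd3e never passed 0.39 CPM. Summed CPM of 5 skeletal muscle markers was 0.8 to 1.83 in injured and 3.28 to 26.03 in contralateral libraries. Most of the highest sum came from Tnnt3, at 24.7 CPM in RaptorKO contralateral 3. For 6 lymphocyte markers the sum was 0.29 to 2.93 CPM over all libraries. Xist was at 1416 and 1466 CPM in control injured 3 and control contralateral 3, and at 2.19 CPM or less in all other libraries, so the sexes were not balanced between genotypes.

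Promoters are shown for the member that rose most with injury among those with a fold change, Tgfb1, and for Smad3 and Bmpr1a, which differed between genotypes. The RefSeq table (GRCm38.p6) held promoters of 21 of the 31 members, and those of Bmp1 and Bmp7 were not among them. Windows covered the 250 bases before the transcription start. Of that of Bmpr1a only the 109 bases outside annotated exons are printed, which lie before the start of a shorter transcript and in the first intron of a longer one. Tgfb1 is given on the + strand (chr7:25686752-25687001), Smad3 on the - strand (chr9:63757995-63758244) and Bmpr1a on the - strand (chr14:34502688-34502796). Capitals mark GGCGCC, the letters bound by the BMP Smads.
Tgfb1: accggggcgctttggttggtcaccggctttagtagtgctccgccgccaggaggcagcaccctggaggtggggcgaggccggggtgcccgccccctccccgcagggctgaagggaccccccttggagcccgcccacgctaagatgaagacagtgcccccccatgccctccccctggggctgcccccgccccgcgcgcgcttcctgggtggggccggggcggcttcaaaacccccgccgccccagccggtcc
Smad3: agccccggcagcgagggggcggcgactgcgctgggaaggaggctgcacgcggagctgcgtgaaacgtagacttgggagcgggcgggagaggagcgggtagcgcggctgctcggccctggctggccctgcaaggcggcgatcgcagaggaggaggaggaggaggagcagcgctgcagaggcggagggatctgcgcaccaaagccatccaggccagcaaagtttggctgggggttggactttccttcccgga
Bmpr1a: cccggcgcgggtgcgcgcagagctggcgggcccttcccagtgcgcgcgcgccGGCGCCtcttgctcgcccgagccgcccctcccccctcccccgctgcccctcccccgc
All 3 stretches were rich in G and C, with 75.2% in Tgfb1, 69.2% in Smad3 and 84.4% in Bmpr1a. GGCGCC, which reads alike on both strands, was found in windows of 5 members (Bmp2k, Bmpr1a, Bmpr2, Smad5 and Tgfbr1) and in 9.59% of 32851 promoters in the table. CAGAC, the letters bound by Smad3 and Smad4, was found on either strand in windows of 10 of the 21 members and in 42.2% of all promoters. TGACTCA, the letters bound by AP-1, whose subunit c-Jun marks the injury response of SCs, was found on either strand in 0 of the 21 members and in 4.46% of all promoters. Matches describe these windows, and absent letters say nothing about binding elsewhere.

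Levels can be compared between genes only per length, here as reads per kilobase of annotated exon and 1000000 reads (RPKM). In control contralateral nerves the highest member was Bmp7, a BMP ligand, at 52.5 ± 2.40 RPKM (SD, n = 3). Tgfbr3, the co-receptor betaglycan, followed at 45.5 ± 1.84 RPKM, then the type II receptor Tgfbr2 at 32.2 ± 0.32 RPKM and the type I receptor Bmpr1a at 20.2 ± 2.64 RPKM. These 4 lay apart by more than their SDs. In control injured nerves the order was Bmp1 at 32.6 ± 2.33, Bmpr1a at 26.05 ± 0.58, Tgfbr2 at 26.0 ± 4.66, Tgfbr3 at 24.4 ± 1.84 and Tgfb1 at 23.4 ± 1.82 RPKM, where only Bmp1 stood apart from its neighbour by more than their SDs. Tgfb1 moved from rank 24 of 31 in contralateral to rank 5 in injured controls, and from rank 23 to rank 2 in RaptorKOs. Bmp7 moved from rank 1 to rank 7 in controls and from rank 2 to rank 9 in RaptorKOs.

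**Figure D1:**
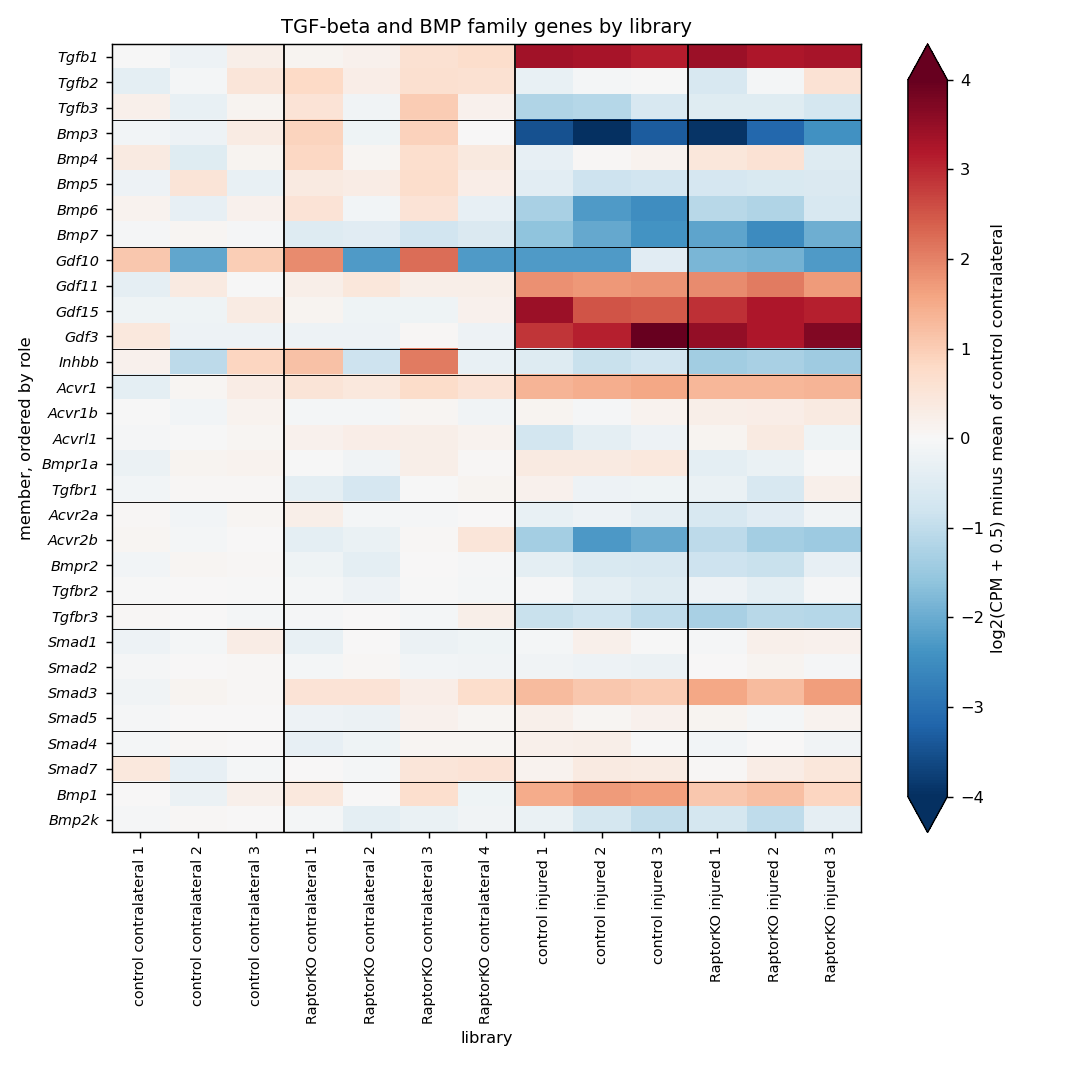
Level of each of the 31 members (vertical axis, ordered by role) in each of the 13 libraries (horizontal axis), as log2(CPM + 0.5) minus the mean of the 3 control contralateral libraries. Colours end at 4 in either direction, and black lines separate groups and roles. Injured libraries are red in Tgfb1, Gdf11, Acvr1, Smad3 and Bmp1 and blue in Bmp3, Bmp7 and Tgfbr3.

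The response of the family to crush was examined first in control nerves. Calls needed a fold change over 1.2 and an adjusted p under 0.05 in edgeR's quasi-likelihood test, with the Benjamini-Hochberg method applied over every gene tested. All log2 fold changes are given with their standard errors (SE), and p-values are those of this test unless another is named. Of 26 members tested, 13 were lower, 6 were higher and 7 were not called. The background was high, as 65.3% of all 12430 genes tested were called, 32.9% as lower and 32.4% as higher. The members' median log2 fold change was -0.27, against -0.0015 over all genes. In RaptorKO nerves 30 members were tested, of which 12 were lower and 7 were higher. Among them were Gdf10 as lower and Gdf3 as higher, which passed the count limit only through libraries where they were high. Of all genes tested there 58.9% were called, 28.5% as lower and 30.5% as higher. The median was -0.19, against 0.028 over all genes. Of the 26 members tested in both genotypes, 16 were called in both, 11 of them lower and 5 higher. In both genotypes the share of tested members that were called was thus near that of all genes.

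Among the TGF-beta ligands, Tgfb1 rose and Tgfb3 fell in both genotypes. Tgfb1 had 11.8, 10.1 and 13.9 CPM in control contralateral and 125.8, 120.4 and 107.9 CPM in control injured libraries. RaptorKO nerves showed 12.9, 13.3, 18.2 and 19.7 CPM in contralateral and 130.4, 114 and 121 CPM in injured libraries. Injured and contralateral libraries lay far apart, while the genotypes overlapped on both sides. The log2 fold change with injury was 3.28 (SE 0.13, adjusted p = 6.91e-10) in controls and 2.93 (SE 0.16, adjusted p = 1.06e-07) in RaptorKOs (edgeR). Tgfb3 had 43.0, 30.2 and 40.0 CPM in control contralateral and 16.1, 16.7 and 23.9 CPM in control injured libraries. It had 54.8, 33.9, 76.7 and 41.9 CPM in RaptorKO contralateral and 26.5, 26.6 and 22.7 CPM in RaptorKO injured libraries. All injured libraries lay below all contralateral ones. Its log2 fold changes were -1.02 (SE 0.19) and -1.04 (SE 0.24). Tgfb2 stayed between 1.78 and 5.66 CPM in all libraries. Tgfb3 overlaps Gm37804 and Gm48008, and Tgfb2 overlaps Gm29491, on the other strand.

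Per length, Tgfb1 made up 15.2%, 17.6% and 17.9% of the summed RPKM of the 3 ligands in control contralateral libraries and 82.9%, 81.5% and 73.8% in control injured ones. In RaptorKOs its share was 12.97%, 19.8%, 13.3% and 22.8% in contralateral and 76.1%, 73.1% and 76.1% in injured libraries. The prevailing ligand transcript thus changed from Tgfb3 to Tgfb1 in both genotypes. The summed level was 11.4 to 15.4 RPKM in control contralateral and 29.0 to 30.1 RPKM in control injured libraries. In RaptorKOs it was 13.3 to 27.15 RPKM in contralateral and 31.03 to 34.0 RPKM in injured libraries. Summed CPM of 8 macrophage markers moved in the same direction, from 160 to 182 in control contralateral and 258 to 329 in RaptorKO contralateral to 1850 to 3773 in injured libraries, with all 8 markers called higher in both genotypes. Their part in the rise of Tgfb1 was not tested.

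**Figure D2:**
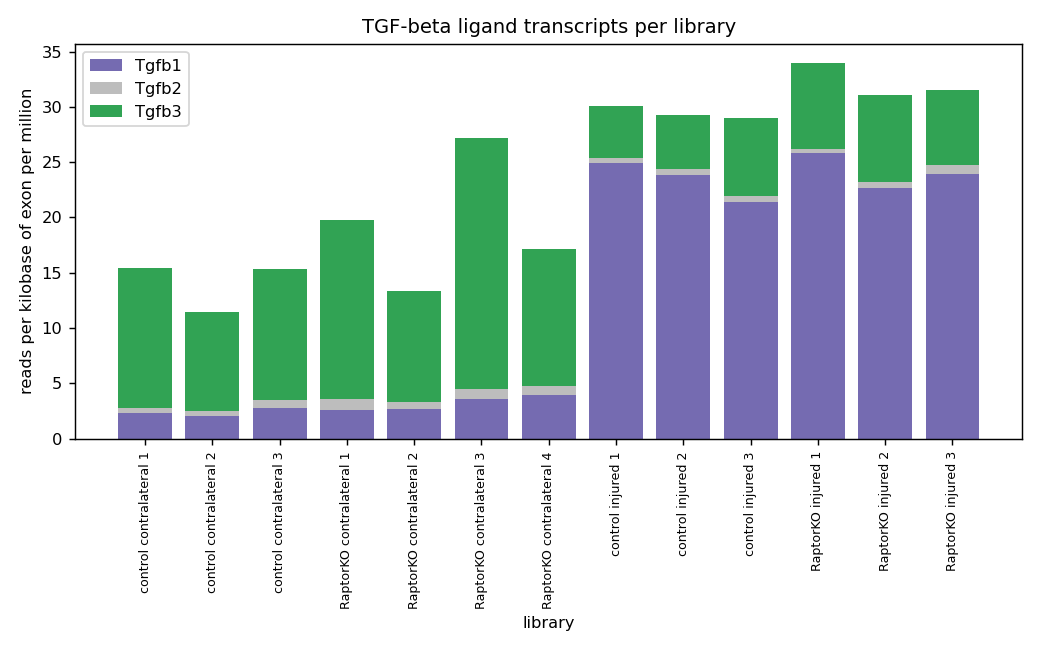
Stacked level of Tgfb1, Tgfb2 and Tgfb3 in RPKM (vertical axis) in each of the 13 libraries (horizontal axis). Tgfb3 fills most of each contralateral bar, and Tgfb1 makes up 73.1% to 82.9% of each injured bar.

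Bmp3, Bmp5, Bmp6 and Bmp7 fell with injury in both genotypes. In controls all 4 tested were lower, and in RaptorKOs 4 of 5 were lower while Bmp4 was not called (log2 fold change -0.30). Bmp3, a BMP that opposes other family ligands, had 38.6, 36.5 and 52.3 CPM in control contralateral and 3.29, 0.28 and 3.72 CPM in control injured libraries. Among RaptorKOs there were 77.8, 37.4, 80.1 and 42.0 CPM in contralateral and 2.31, 4.32 and 7.5 CPM in injured libraries. Its log2 fold change was -4.16 (SE 0.43, adjusted p = 4.21e-06) in controls and -3.66 (SE 0.41, adjusted p = 2.42e-05) in RaptorKOs (edgeR). Bmp3 was high in every contralateral library and low in every injured one. Bmp6 had 27.2, 19.4 and 27.7 CPM in control contralateral and 9.68, 4.68 and 3.92 CPM in control injured libraries. In RaptorKOs it had 36.3, 22.5, 36.0 and 19.3 CPM in contralateral and 11.1, 10.3 and 15.5 CPM in injured libraries. The log2 fold changes were -2.04 (SE 0.30) and -1.22 (SE 0.26), and injured and contralateral libraries did not overlap. Bmp6 overlaps Txndc5 on the other strand. Bmp7 fell by 2.01 (SE 0.15) in controls and 1.61 (SE 0.14) in RaptorKOs on the log2 scale, and Bmp5 by 0.81 (SE 0.32) and 1.13 (SE 0.23). Bmp5 overlaps Gm26903 and Bmp4 overlaps Gm15217 on the other strand.

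Among the GDFs, ligands of the same family, Gdf11 rose in both genotypes. Gdf3 and Gdf10 had enough counts for a test with injury in RaptorKOs only, so their calls there do not set the genotypes apart. Gdf3 passed the count limit only through injured libraries and Gdf10 only through contralateral ones. The limit thus fixed the direction that a call could take. Gdf11, a ligand that signals through activin receptors, had 9.74, 16.5 and 12.4 CPM in control contralateral and 45.9, 43.2 and 45.3 CPM in control injured libraries. RaptorKO nerves showed 15.04, 17.6, 14.97 and 14.8 CPM in contralateral and 48.3, 54.3 and 41.9 CPM in injured libraries. All injured libraries lay above all contralateral ones, with log2 fold changes of 1.77 (SE 0.18) and 1.62 (SE 0.13). Gdf3 had 3, 0 and 0 counts in control contralateral and 40, 49 and 165 counts in control injured libraries. Among RaptorKOs there were 0, 0, 1 and 0 counts in contralateral and 69, 63 and 77 counts in injured libraries, where it was called higher. Gdf15, known as a stress cytokine, had 0 to 2 counts in contralateral and 26 to 60 counts in injured libraries and had too few counts for a test within either genotype. No fold is given for Gdf3 and Gdf15, as the contralateral libraries were at or near 0. Gdf10 had 51, 1 and 44 counts in control contralateral and 0, 0 and 13 counts in control injured libraries. In RaptorKOs it had 80, 0, 114 and 0 counts in contralateral and 2, 2 and 0 counts in injured libraries. Gdf10 was called lower in RaptorKOs, but the call rested on RaptorKO contralateral 1 and 3 and was lost without RaptorKO injured 1 (adjusted p = 0.0729), 2 (adjusted p = 0.0692) or 3 (adjusted p = 0.0796) with edgeR.

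Inhbb, the activin beta B subunit, had 11.5, 4.64 and 18.5 CPM in control contralateral and 6.94, 5.23 and 5.68 CPM in control injured libraries. These groups overlapped through control contralateral 2. RaptorKO nerves showed 23.5, 5.50, 43.7 and 8.12 CPM in contralateral and 3.56, 3.77 and 3.48 CPM in injured libraries, without overlap. The log2 fold changes were -0.97 (SE 0.40, adjusted p = 0.0475) and -2.49 (SE 0.64, adjusted p = 0.0068, edgeR). The difference between them was not called (interaction log2 -1.54, adjusted p = 0.478, edgeR).

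**Figure D3:**
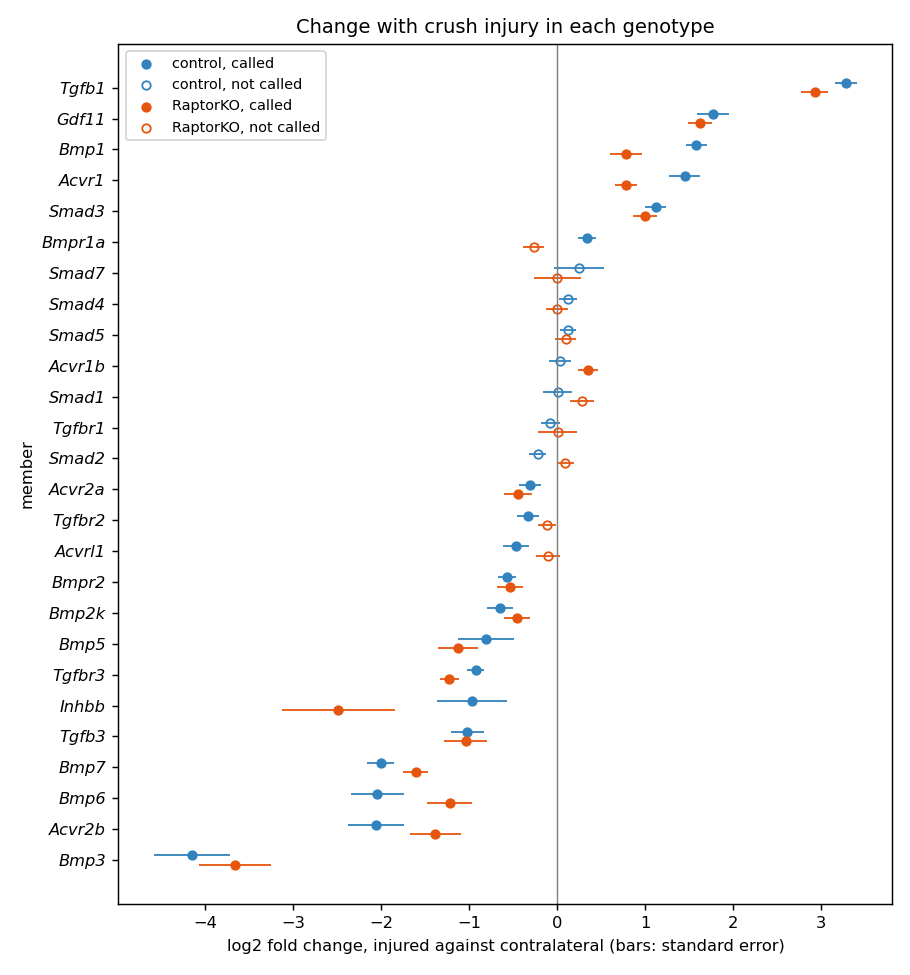
Log2 fold change of injured against contralateral nerves (horizontal axis, bars show the SE) for the 26 members tested in both genotypes (vertical axis). Filled circles mark called members and open circles those not called. Tgfb1, Gdf11, Bmp1, Acvr1 and Smad3 lie to the right in both genotypes, and Bmp3 lies farthest to the left.

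Of 5 type I receptors, Acvr1 rose in both genotypes. Acvr1, known as ALK2 and a receptor for BMPs and activins, had 10.01, 13.9 and 16.3 CPM in control contralateral and 34.8, 37.1 and 39.6 CPM in control injured libraries. Among RaptorKOs there were 19.0, 17.9, 22.03 and 19.5 CPM in contralateral and 33.7, 33.4 and 34.4 CPM in injured libraries. Groups did not overlap, and the log2 fold changes were 1.45 (SE 0.17) and 0.78 (SE 0.12). Acvr1b, an activin receptor, was called higher in RaptorKOs (0.35, SE 0.12) and not in controls (0.03, SE 0.13). Tgfbr1, the type I receptor for TGF-beta, was not called in either genotype (-0.08, SE 0.11 and 0.01, SE 0.22). Acvrl1, an endothelial receptor known as ALK1, was called lower in controls (-0.47, SE 0.15) and not in RaptorKOs (-0.11, SE 0.13). Acvrl1 overlaps Gm16031 on the other strand. The injury effects of the 2 genotypes were not shown to differ for either gene (interaction adjusted p = 0.419 for Acvr1b and 0.507 for Acvrl1, edgeR).

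The 4 type II receptors were all called lower with injury in controls, and 3 of them in RaptorKOs. Acvr2b, an activin receptor, had 10.1, 9.05 and 9.66 CPM in control contralateral and 3.47, 1.56 and 1.96 CPM in control injured libraries. In RaptorKOs it had 7.15, 7.94, 9.82 and 13.7 CPM in contralateral and 4.35, 3.46 and 3.20 CPM in injured libraries. The log2 fold changes were -2.06 (SE 0.32) and -1.39 (SE 0.29), without overlap between groups. Bmpr2, the BMP type II receptor, changed by -0.57 (SE 0.10) and -0.53 (SE 0.15). Acvr2a changed by -0.32 (SE 0.13) and -0.45 (SE 0.16) and overlaps Orc4 on the other strand. Tgfbr2 changed by -0.33 (SE 0.12) in controls and by -0.12 (SE 0.10) in RaptorKOs, where it was not called (interaction adjusted p = 0.69, edgeR). The co-receptor Tgfbr3, which presents TGF-beta to its receptors, changed by -0.93 (SE 0.10) and -1.23 (SE 0.11) and shares exon sequence with Gm43422 on the same strand.

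Among the Smads, Smad3 alone was called with injury, and it rose in both genotypes. Smad3 had 23.0, 27.3 and 26.1 CPM in control contralateral and 62.4, 54.4 and 52.3 CPM in control injured libraries. RaptorKO nerves showed 37.1, 36.9, 30.9 and 41.6 CPM in contralateral and 75.7, 61.9 and 82.2 CPM in injured libraries. The log2 fold changes were 1.12 (SE 0.12) and 0.996 (SE 0.13), and injured and contralateral libraries did not overlap. Its share of the summed RPKM of Smad2 and Smad3 was 42.3% to 45.8% in control contralateral and 65.5% to 68.3% in control injured libraries, and 50.7% to 59.0% and 63.9% to 72.4% in RaptorKOs. Smad1, Smad2, Smad4, Smad5 and Smad7 were not called in either genotype, and their log2 fold changes lay between -0.22 and 0.28. Smad5 shares exon sequence with Gm27301 on the same strand. The protease Bmp1 had log2 fold changes of 1.58 (SE 0.12) and 0.79 (SE 0.18), and Bmp2k, which overlaps Paqr3 on the other strand, of -0.65 (SE 0.15) and -0.46 (SE 0.15).

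Several of the smaller injury calls depended on single libraries. With edgeR Acvrl1 was lost in controls without control injured 1 (adjusted p = 0.0606) and Bmpr1a without control contralateral 1 (adjusted p = 0.0565). Bmp5 was lost without control injured 2, control injured 3 or control contralateral 2 (adjusted p = 0.118, 0.0909 and 0.246). Tgfbr2 was lost without control injured 2 or 3 or control contralateral 1 or 2 (adjusted p = 0.121, 0.11, 0.056 and 0.0606). Inhbb was lost without any 1 of 5 of the 6 control libraries, with a log2 fold change of -0.46 without control contralateral 3 (adjusted p = 0.301) and adjusted p = 0.0614 to 0.127 without control injured 1, 2 or 3 or control contralateral 1. Acvr2a kept its call in controls in 3 of 13 alternatives and was lost without control injured 1, 2 or 3 or control contralateral 1 or 3 (adjusted p = 0.115, 0.0634, 0.12, 0.0961 and 0.104). In RaptorKOs Acvr2a, Bmp2k and Acvr1b each lost the call without any 1 of 3 libraries. These were RaptorKO injured 1 and 2 and contralateral 1 for Acvr2a (adjusted p = 0.123, 0.0821 and 0.0817) and for Bmp2k (adjusted p = 0.0671, 0.0784 and 0.0542). For Acvr1b they were RaptorKO injured 3 and contralateral 1 and 2 (adjusted p = 0.0702, 0.057 and 0.054). The direction of the log2 fold change was kept in each of these cases. Injured and contralateral nerves of 1 number within a genotype were taken as 1 mouse, which no label states. With the number as a replicate block Bmp5 (adjusted p = 0.0695), Inhbb (0.05003) and Acvr2a (0.0651) lost the call in controls. Acvr1b (0.0545, edgeR) lost it in RaptorKOs.

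The genotypes were then compared in injured nerves, to ask whether loss of Raptor altered the family after crush. Of 28 members tested, 2 were called, both lower in RaptorKOs, Bmpr1a and Bmp1. Among all 12040 genes tested 8.54% were called, 4.44% as lower and 4.09% as higher. The groups did not overlap for 9 of the 28 members, against 26.2% of all genes tested. The members' median log2 difference was 0.03, against 0.0014 over all genes. The share of called members was thus near that of all genes. DESeq2 and the exact test of edgeR each called 4 members, adding Acvrl1 and Bmp6.

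Bmpr1a, the BMP type I receptor ALK3, had 163, 164 and 169.6 CPM in control injured libraries and 96.6, 106 and 125 CPM in RaptorKO injured ones. All RaptorKO libraries lay below all controls. The log2 difference was -0.59 (SE 0.11, adjusted p = 0.0095, edgeR). Contralateral controls had 109, 136 and 139.6 CPM and contralateral RaptorKOs 127, 116, 149 and 131 CPM, with overlap and a log2 difference of 0.05 (SE 0.11). With injury it rose in controls (0.34, SE 0.10, adjusted p = 0.0104, edgeR) and was not called in RaptorKOs (-0.27, SE 0.12, adjusted p = 0.0738). The interaction, the difference between both injury effects, was -0.63 (SE 0.16) and not called (adjusted p = 0.0578, edgeR). Blocked on the mouse, by the replicate number within each genotype, the interaction was called (-0.64, adjusted p = 0.0339), as was a lower level with injury in RaptorKOs (-0.27, adjusted p = 0.0458, edgeR). The call in injured nerves was lost without RaptorKO injured 1 (adjusted p = 0.0526) and kept in 12 of 13 alternatives. Bmpr1a overlaps Gm17110 on the other strand. The gene lies at chr14:34410734-34503341 of GRCm38, on the - strand.

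Bmp1 had 266, 307 and 294 CPM in control injured libraries and 199.9, 219 and 173 CPM in RaptorKO injured ones, again without overlap. The log2 difference was -0.54 (SE 0.12, adjusted p = 0.0211, edgeR). Contralateral controls had 94.6, 80.6 and 109.5 CPM and contralateral RaptorKOs 126, 95.7, 150.5 and 83.5 CPM, which overlapped. The interaction was -0.82 (SE 0.25) and not called (adjusted p = 0.109, edgeR). The call in injured nerves held in 8 of 13 alternatives. It was lost without control injured 2 (adjusted p = 0.0944) or 3 (0.0577), without RaptorKO injured 1 (0.0714) or 3 (0.0521), and with all 13 libraries in 1 fit (0.0616). Bmp1 lies at chr14:70474558-70520234 on the - strand. For both genes the exact permutation test gave a p of 0.1, the smallest that 3 against 3 libraries allow.

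**Figure D4:**
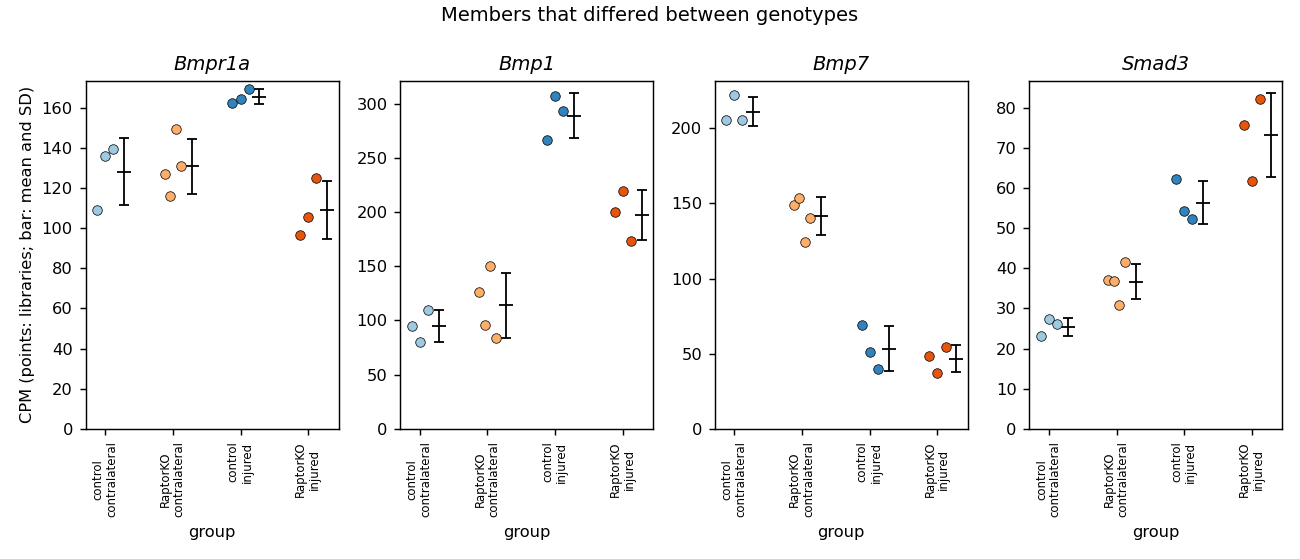
CPM (vertical axes, from 0) of Bmpr1a, Bmp1, Bmp7 and Smad3 in the 4 groups (horizontal axes), with a point per library and the mean and SD beside them. RaptorKO injured libraries lie below control injured ones in Bmpr1a and Bmp1, and RaptorKO contralateral libraries lie below controls in Bmp7 and above them in Smad3.

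Other members did not reach the threshold in injured nerves. Acvrl1 was at 23.4, 29.99 and 34.1 CPM in the controls, against 42.5, 50.6 and 34.8 CPM in the RaptorKOs, without overlap (log2 difference 0.56, SE 0.18, adjusted p = 0.0818, edgeR). It was called in 5 of 13 alternatives. Summed CPM of 8 endothelial markers was 359 to 524 in control and 719.7 to 1077 in RaptorKO injured libraries, with 8 of 8 called higher (1 of 8 without control injured 1 or 2), and the part of these cells in the level of Acvrl1 was not tested. Bmp6 was not called either, although every RaptorKO library lay above every control (log2 difference 1.02, SE 0.33, adjusted p = 0.0822, edgeR), and it passed in 4 of 13 alternatives. Smad3 had a log2 difference of 0.39 (SE 0.13, adjusted p = 0.0869, edgeR) and overlapping groups, and was called in 2 of 13 alternatives. Both Tgfb1 (0.06, SE 0.10) and Tgfb3 (0.43, SE 0.18) were not called. Among markers of other cells, 6 of 7 tested genes of pericytes and vascular smooth muscle and 4 of 5 of mast cells were higher in RaptorKO injured nerves, the latter 0 of 5 without control injured 1 and 2 of 5 without RaptorKO injured 1. All 7 proliferation genes and 3 of 7 SC markers were lower, and 0 of 8 macrophage markers were called by edgeR, DESeq2 or at an unadjusted p below 0.05. Summed SC markers were 4281 to 4532 CPM in control and 2879 to 3653 CPM in RaptorKO injured libraries. Their part in the lower Bmpr1a and Bmp1 was not tested.

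In contralateral nerves 29 members were tested, of which Bmp7 was lower and Smad3 higher in RaptorKOs. Among all 11878 genes tested 10.2% were called, 5.68% as lower and 4.49% as higher. The groups did not overlap for 5 of the 29 members, against 23.7% of all genes tested. The members' median log2 difference was 0.22, against 0.012 over all genes.

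Bmp7, the highest member per length in control contralateral nerves, was at 206, 222 and 205 CPM in the controls, against 149, 153, 124 and 140.5 CPM in the RaptorKOs. Every RaptorKO library lay below every control. The log2 difference was -0.56 (SE 0.09, adjusted p = 0.0032, edgeR), and the call was kept in 14 of 14 alternatives. Injured controls had 69.4, 51.2 and 39.7 CPM and injured RaptorKOs 48.6, 36.9 and 54.6 CPM, with overlap (log2 difference -0.18, SE 0.19). The interaction was 0.38 (SE 0.23, adjusted p = 0.534, edgeR), so the effects on both sides were not shown to differ. Per length Bmp7 made up 75.0% to 80.6% of the summed RPKM of Bmp3 to Bmp7 in control contralateral and 55.0% to 72.6% in RaptorKO contralateral libraries. Bmp7 lies at chr2:172868012-172940321 on the - strand.

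Smad3 in contralateral nerves lay between 23.02 and 27.3 CPM in controls, and between 30.9 and 41.6 CPM in RaptorKOs, without overlap. The log2 difference was 0.54 (SE 0.13, adjusted p = 0.0257, edgeR). The call was lost without control contralateral 1 (adjusted p = 0.108), 2 (0.0672) or 3 (0.0715) or RaptorKO contralateral 1 (0.0565), and held in 10 of 14 alternatives. The interaction of Smad3 was -0.14 (SE 0.18, adjusted p = 0.809, edgeR), so the effects in injured and contralateral nerves were not shown to differ. Smad3 lies at chr9:63646767-63757994 on the - strand. For Bmp7 and Smad3 the two-sided exact permutation test gave p = 0.0571, the smallest it can give here with its smaller tail doubled. Acvr1 also did not overlap but was not called (0.57, SE 0.17, adjusted p = 0.0644, edgeR). It was called by DESeq2 (adjusted p = 0.0338) and with all 13 libraries in 1 fit (0.0257, edgeR). A block on the replicate number also called it (0.0398, edgeR). Equal numbers are different mice here, and RaptorKO contralateral 4 has no partner, so that block adds no support. Summed SC markers were 3601 to 3780 CPM in control and 1735 to 2420 CPM in RaptorKO contralateral libraries, with 4 of 7 called lower and 1 higher, Ngfr (35.8 to 43.6 CPM in controls and 63.1 to 75.2 CPM in RaptorKOs). For macrophage markers 5 of 7 tested were called higher, and 3 without control contralateral 1 or 2. Their part in the levels of Bmp7 and Smad3 was not tested.

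The contralateral libraries varied within each genotype in 5 ligands, which were picked after their values were seen. Bmp3, Bmp6, Gdf10, Inhbb and Tgfb3 were each higher in control contralateral 1 and 3 than in 2, and higher in RaptorKO contralateral 1 and 3 than in 2 and 4. Bmp4, Acvr1b and Bmp1 shared this order, which thus held for 8 of the 31 members. The share of all genes with this order was not counted, so it is not shown to be particular to the family. Inhbb, for example, ranged from 5.50 to 43.7 CPM among RaptorKO contralateral libraries. Some markers of cells around the nerve fibres had the same order. Cldn1, a tight junction gene of the perineurium, had 86.0, 57.0 and 112 CPM in the controls, against 150.1, 49.5, 223 and 57.6 CPM in the RaptorKOs. Pi16, a fibroblast gene, had 12.9, 1.63 and 16.8 CPM in the controls, against 27.1, 3.74, 30.99 and 1.16 CPM in the RaptorKOs. Adipoq, an adipocyte gene, had 2, 0 and 10.4 CPM in the controls, against 4.16, 0, 48.4 and 0.13 CPM in the RaptorKOs. Over whole lists, summed CPM of 5 perineurial markers was 1406 to 1617 in control and 1297 to 2209 in RaptorKO contralateral libraries, of 7 fibroblast markers 1322, 1542 and 1363 in controls and 2785, 2260, 3040 and 1587 in RaptorKOs, and of 5 adipocyte markers 1.55 to 127 and 1.53 to 412. In injured libraries the perineurial sum was 606 to 675 CPM, and 5 of 5 perineurial markers were lower with injury in both genotypes, as were all of these ligands that were called. The fibroblast sum was thus highest in control contralateral 2, against the order of the ligands, as were Lum at 372, 463 and 457 CPM and Col3a1 at 768, 914 and 709 CPM in the control libraries. The part of these cells in the ligand levels was not tested.

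**Figure D5:**
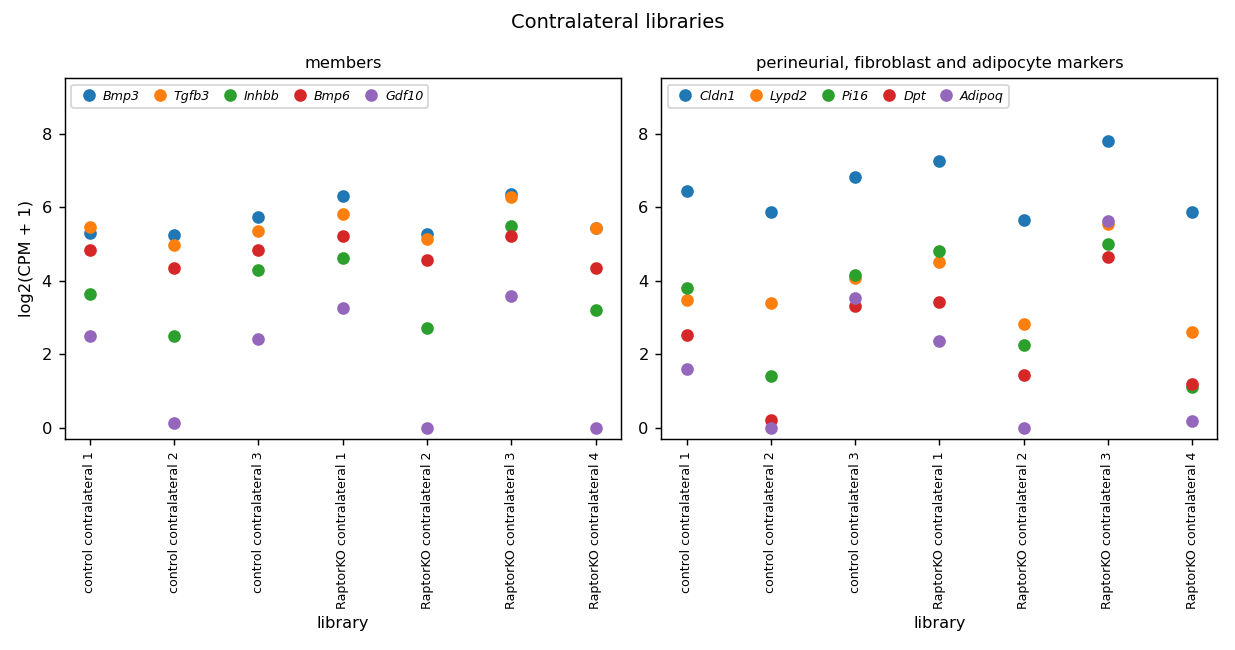
Level as log2(CPM + 1) (vertical axis) of 5 member ligands (left) and 5 perineurial, fibroblast and adipocyte markers (right) in the 7 contralateral libraries (horizontal axis). Control 1 and 3 and RaptorKO 1 and 3 lie above the other libraries of their group in all 5 ligands, and Gdf10 is at or near 0 in the rest. The 5 markers are a selection from their lists that has the order of the ligands. Pdgfra, Lum, Col3a1, Tjp1 and Lep of the same lists do not have it and are not drawn.

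The interaction of genotype and injury was tested for all 31 members, and 0 were called by edgeR's quasi-likelihood test, against 2.47% of all genes tested. At an unadjusted p below 0.05 there were 5 members, Bmpr1a, Bmp1, Acvr1, Tgfbr3 and Smad2. Blocked on the mouse edgeR called 1, Bmpr1a. DESeq2 called 3, Bmpr1a (adjusted p = 0.0089), Bmp1 (adjusted p = 0.0172) and Acvr1 (adjusted p = 0.0428). The injury and genotype comparisons share libraries, so their values are given side by side and were not tested against each other in any other way.

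Genes outside the name rule that bind, release or respond to the ligands were counted by list. In injured nerves 1 of 8 extracellular antagonists tested was lower in RaptorKOs, and 2 more were higher without RaptorKO injured 2 and 1 more without control injured 1. The lower one was Sostdc1, a secreted BMP inhibitor also known as ectodin, with 81.7, 139 and 112 CPM in control injured and 21.4, 11.3 and 15.7 CPM in RaptorKO injured libraries. In contralateral nerves it had 123 to 129 CPM in controls and 91.5 to 124 CPM in RaptorKOs. The log2 difference in injured nerves was -2.77 (SE 0.24, adjusted p = 1.17e-04), and the interaction was -2.48 (SE 0.28, adjusted p = 4.23e-04, edgeR), called in 17 of 17 alternatives. Every RaptorKO injured library lay below every other library, and Sostdc1 was not called with injury in controls (-0.20, SE 0.15). In contralateral nerves 1 antagonist was lower and 2 were higher of 10 tested. Chrdl1, a chordin-like BMP antagonist, was lower (-0.59), while Dcn, which encodes the TGF-beta-binding proteoglycan decorin, was higher (0.85), both called in 14 of 14 alternatives. With injury 5 of 8 antagonists were lower and 2 higher in controls, and 7 of 10 were lower and 2 higher in RaptorKOs, led by Chrdl1 at -4.19 and -3.66. Over all genes tested, 65.3% were called with injury in controls and 58.9% in RaptorKOs. Between genotypes the shares were 8.54% in injured and 10.2% in contralateral nerves, and the interaction called 2.47%. Counts of all lists stand beside these shares and were not tested against them.

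Among genes of latency and activation, which store TGF-beta in the matrix or set it free, 4 of 13 were lower and 7 higher with injury in each genotype. Nrros, which holds latent TGF-beta on myeloid cells, changed by 3.42 in controls and 2.74 in RaptorKOs, and Thbs1, an activator of latent TGF-beta, by 2.83 and 2.41. Between genotypes, 1 of 12 was lower and 2 were higher in injured nerves, and 1 of 13 was lower in contralateral nerves. The injured calls, Tll1 (lower), Ltbp4 and Pcolce, held in 7, 8 and 9 of 13 alternatives, and 0 of the 3 remained without control injured 2, control injured 3 or RaptorKO injured 1 (adjusted p = 0.0648 to 0.15, edgeR). The contralateral call was Pcsk6, a convertase that cuts ligand precursors, with 104, 119 and 118 CPM in the controls, against 51.1, 45.4, 48.9 and 41.1 CPM in the RaptorKOs. Its groups lay well apart (-1.27, SE 0.10, adjusted p = 6.16e-05, edgeR). Of co-receptors and decoys, 0 of 7 were called in injured nerves by edgeR (3 at an unadjusted p below 0.05, and 1 by DESeq2) and 1 of 7, the glypican Gpc3, was higher in contralateral nerves (0.90). With injury 3 of 6 were lower and 2 higher in controls (3 calls in all without control injured 1 or any 1 control contralateral library, and 2 without control injured 2), and 2 of 7 were lower and 2 higher in RaptorKOs. Of 18 intracellular modulators, 2 were lower in RaptorKO injured and 1 in RaptorKO contralateral nerves. Nedd4l and Pmepa1 in injured nerves held in 4 and 10 of 13 alternatives, and both were lost without control injured 2 (adjusted p = 0.163 and 0.0833) or RaptorKO injured 1 (adjusted p = 0.204 and 0.08, edgeR). Smurf1 in contralateral nerves was lost without control contralateral 1, 2 or 3 or RaptorKO contralateral 1 (adjusted p = 0.0839, 0.0672, 0.0752 and 0.0574, edgeR). With injury 7 were lower in each genotype, and 6 were higher in controls and 8 in RaptorKOs. Of all genes tested, 65.3% were called with injury in controls and 58.9% in RaptorKOs.

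Genes known as TGF-beta targets moved in both directions. In injured nerves 2 of 13 tested were lower and 4 were higher in RaptorKOs, but 1 was lower and 0 were higher without control injured 2, and 1 and 1 without RaptorKO injured 1. Postn, a matrix protein, had 474, 572 and 828 CPM in control injured and 196, 189 and 233 CPM in RaptorKO injured libraries (log2 difference -1.59, SE 0.19), called in 12 of 13 alternatives. Tagln, a smooth muscle gene, was higher by 1.17 and Ccn2 by 0.91 on the log2 scale, each in 10 of 13 alternatives. Tagln was lost without control injured 1 or 2 (adjusted p = 0.0813 and 0.102), and Ccn2 also without RaptorKO injured 1 (adjusted p = 0.0809, 0.0947 and 0.0508 in this order, edgeR). Summed CPM of 8 pericyte and vascular smooth muscle markers was 495 to 582 in control and 955 to 1266 in RaptorKO injured libraries, and its part in these values was not tested. In contralateral nerves 2 of 13 were higher (0 without control contralateral 1 or 2, and 6 without RaptorKO contralateral 4), among them Tgfbi (0.78). Its call was lost without control contralateral 1, 2 or 3 or RaptorKO contralateral 1 (adjusted p = 0.0947, 0.115, 0.0825 and 0.074, edgeR). With injury 8 of 14 were higher and 4 lower in controls, and 8 were higher and 3 lower in RaptorKOs, with 7 higher and 3 lower in both. Of all genes tested, 32.4% were higher and 32.9% lower in controls, and 30.5% were higher and 28.5% lower in RaptorKOs. Ccn2 was lower in controls (-0.49) and higher in RaptorKOs (0.61), and Postn was higher in controls (3.22) and not called in RaptorKOs (0.42, adjusted p = 0.494, edgeR). For BMP targets 0 of 8 were called between genotypes on either side by edgeR or DESeq2 (at an unadjusted p below 0.05 there were 1 in injured and 2 in contralateral nerves). With injury 3 of 7 were lower and 1 higher in controls while 1 of 8 was higher in RaptorKOs, where the replicate block also gave 2 as lower, Id1 (-0.78) and Atoh8 (-1.16). Without RaptorKO contralateral 4 there were also 2 lower. The riser in both was Id2, an inhibitor of differentiation (2.92 and 2.35). The median log2 difference of TGF-beta targets between genotypes in injured nerves was 0.16, against 0.0014 over all genes. In the interaction 2 of 10 antagonists were lower (Sostdc1 and Fst, which encodes the activin-binding follistatin) and 1 of 14 TGF-beta targets was higher (Ccn2). With the mouse as a replicate block Fst was not called (adjusted p = 0.0869), while Postn (-2.87, adjusted p = 0.0168) and Tgfbi (-0.66, adjusted p = 0.0274, edgeR) were. The calls of Fst (adjusted p = 0.0449) and Ccn2 (adjusted p = 0.0426, edgeR) held in 5 and 7 of 17 alternatives. Fst was low, with 2.28, 2.94 and 1.96 CPM in control injured and 1.07, 0.63 and 0.18 CPM in RaptorKO injured libraries. It had too few counts for a test between genotypes in injured nerves. Fst was lost without any 1 library other than RaptorKO injured 1 and RaptorKO contralateral 2 (adjusted p = 0.061 to 0.115), and Ccn2 without any other than control injured 3, RaptorKO injured 3 and RaptorKO contralateral 2 (adjusted p = 0.0604 to 0.107, edgeR). Of the 6 ligands of the family outside the name rule, Mstn, Nodal, Lefty1, Lefty2, Amh and Inha, 0 had enough counts for a test.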

How the data were processed

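RNA from 13 sciatic nerves was sequenced. The submitters' processing notes name Trimmomatic, RSEM 1.2.22 and the GRCm38 build; the aligner settings and whether reads were counted by strand are not given in the sources used here. The authors deposited RSEM expected counts per gene, which share out reads that match several genes, so 24.93% to 27.95% of the nonzero values per library were not whole. They were rounded to whole numbers. Of 40787 genes, 40550 were matched by ID to GENCODE M21, from which symbols, positions and exon lengths were taken. All value columns were used. Groups were taken from the labels.

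Counts were tested in R 4.3.3 with edgeR 4.0.16 (TMM factors, quasi-likelihood test, Benjamini-Hochberg adjustment over all tested genes). Testing required 50 counts in 2 or more of the compared libraries. Calls required a fold change over 1.2 (not for the interaction) and an adjusted p under 0.05. Only the groups of a comparison entered its fit, and all 13 libraries that of the interaction. CPM used TMM factors over all 13 libraries. The steps were tested on simulated data. Changed genes were given log2 fold changes of 1 or 2 in either direction. The steps recovered 87.6% to 91.8% of them in the comparisons of 2 groups and 66.3% in the interaction. Recovery of smaller changes, such as those of the members called between genotypes, was not measured. At the adjusted p limit of 0.05, false calls made up 10.0% of calls between genotypes in injured and 4.3% in contralateral nerves. Their share was 8.7% and 7.6% with injury in controls and RaptorKOs, and 6.5% in the interaction. The exact test of edgeR, which the study used, DESeq2 1.42.0, RLE factors, other filters, 1 fit over all libraries, a replicate block and leaving out each library were alternatives. Figures were drawn with matplotlib 3.10.9 in Python 3.11.15.

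Members and lists were chosen with earlier results of these data known. Members called between genotypes, or in the interaction, were named with every library, as were the 5 of largest fold change in each direction with injury in controls. Of each list, up to 4 called genes of largest fold change were named. Values of Gdf3, Gdf10, Gdf15, Inhbb and of members near the threshold were added after they were seen. Crush was unilateral, the study sequenced the matching contralateral nerves, and titles give both nerves of a genotype the same number, so equal numbers within a genotype were taken as 1 mouse. Deviations of such pairs from their group means correlated with r from -0.024 to 0.305 over genes, and Xist was high in both libraries of control 3 alone. As in the study, the tests had no mouse term, and values with the mouse as a block are given where they change a call. Some list genes are not reported here by name.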

Additional observations from a re-analysis of the deposited data

Results flagged for a closer look

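In RaptorKO contralateral nerves Gdf11 had 15.04, 17.6, 14.97 and 14.8 CPM. Replicate 2 stood apart, with a gap to the nearest library of 0.918 of the whole range of the 4 libraries, above Dixon's critical value for 4 samples. In the same group Gdf3 had a single count in replicate 3 and 0 counts in the others, which gives a gap of 1.0 of the range and rests on that count alone. These were 2 of 31 members checked in this way, and chance gives about 1 in 20. Injured nerves and control contralateral nerves have 3 libraries per group and were not checked.

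The injury effect differed between genotypes by the interaction term in 3 genes of the pathway lists, none of them a member by name. The interaction was -2.48 (log2) in Sostdc1, -2.65 in Fst and 1.07 in Ccn2. That of Sostdc1 was called in 17 of 17 alternatives, that of Fst in 5 and that of Ccn2 in 7. Fst was at 1.07 CPM or less in RaptorKO injured libraries, so its value rests on few counts.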

How the results depend on the processing

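The count of members called between genotypes in injured nerves (2) was 1 at an adjusted p below 0.01, 4 with the exact test, 4 with DESeq2 and 5 without a count filter, and 0 to 3 with a single library left out. In contralateral nerves (2) it was 1 at an adjusted p below 0.01 and 1 to 2 with a library left out. DESeq2 and 1 fit over all libraries each added Acvr1 there. In the interaction (0) it was 3 with DESeq2, 2 without a count filter and 0 to 1 with a library left out. With the replicate number as a replicate block, members called were 2 in injured and 7 in contralateral nerves, 16 and 19 with injury in controls and RaptorKOs, and 1 in the interaction. Between genotypes equal numbers are different mice, and no label says what they share. Same-numbered libraries had r from -0.050 to 0.027 over genes in injured and 0.072 to 0.301 in contralateral nerves. Same-numbered pairs within a genotype had a similar range (-0.024 to 0.305). What the numbers mean between genotypes was not tested, and the block on them is among the alternatives counted there. Within a genotype the block changed no other member's call with injury or in the interaction than those given above. Both injury counts (19 and 19) stayed within 1.5 times of their value under every alternative run. For members called in a comparison, 544 of their log2 fold changes under an alternative kept the call, 63 lost it and 0 changed sign. These numbers include the adjusted p limit of 0.01, which reuses the main fit and so cannot change a sign. The alternatives counted for single genes leave that limit out. The causes were not tested. Depth limited Gdf3, Gdf10, Gdf15 and Inhba, which had under 50 counts in most libraries of at least 1 group. The same held for Acvr2b, Bmp3, Bmp4, Bmp5, Inhbb and Tgfb2. In control injured libraries Acvr2b had 38, 17 and 20 counts and Bmp3 had 36, 3 and 38, so their fold changes rest on few counts there.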
